A study of Mus musculus with 4 samples.

Results

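The miRNAs miR-199 and miR-214 were followed across 4 one-colour miRNA arrays through the 5 probes that carry their names, of 1900 miRNA probes on the array, 1898 of which were used. The probes were picked by their names, and the group was proposed with earlier results of these data known. They are mmu-miR-199a-5p, mmu-miR-199b-5p, mmu-miR-214-3p, mmu-miR-214-5p and 1 probe named mmu-miR-199a-3p, mmu-miR-199b-3p, which is written miR-199a/b-3p below, and the prefix mmu- for mouse is dropped. The stated subject of the series is miRNAs at the crosstalk of Wnt with TGF-beta signalling. Each array held total RNA from MC3T3-E1 cells, osteoblastic cells cloned from mouse skull bone, which overexpressed Wnt4, Wnt3a, Wnt5a or, as the control, GFP. All cells, the controls included, were infected with a recombinant adenovirus vector and kept in proliferation medium. No genotype beyond the transgene and no time after infection is stated in the sources used here. There was 1 array per group, so no difference below has a replicate check and none carries a p-value.

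The names miR-199 and miR-214 belong to a small group of miRNAs long associated with mesenchymal cells. In mouse, the genes Mir199a-2 and Mir214 lie in Dnm3os, a long noncoding RNA transcribed opposite to the dynamin gene Dnm3 and needed for normal skeletal growth, and the mesenchymal transcription factor Twist1 is a known activator of that transcript. Each hairpin precursor can give 2 mature miRNAs, 1 from its 5′ arm (5p) and 1 from its 3′ arm (3p), and bases 2 to 8 of the mature strand, the seed, take the main part in choosing target messages. miR-214-3p is known in bone for repressing Atf4, a transcription factor that osteoblasts need, and miR-199a-5p is known in human lung fibroblasts as a TGF-beta-responsive repressor of CAV1.

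The mature sequences show which probes can be told apart, so they are given with the seed in capitals. They are from RefSeq on build GRCm38.p6, which held 5 of the 6 mature names, not miR-199b-5p.
miR-199a-3p: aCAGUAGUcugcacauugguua
miR-199b-3p: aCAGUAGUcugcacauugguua
miR-199a-5p: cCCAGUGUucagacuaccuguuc
miR-214-3p: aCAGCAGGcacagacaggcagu
miR-214-5p: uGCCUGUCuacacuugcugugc

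The 3p strands of miR-199a and miR-199b were identical at 22 of 22 positions, which is why 1 probe carries both names and why its signal cannot be assigned to either gene. The Mir199b hairpin, printed below, holds a stretch identical to miR-199a-5p at 22 of 23 positions, seed included. The probes for the 5p strands of miR-199a and miR-199b, whose sequences are not used here, may therefore not be fully separate. miR-214-3p and miR-214-5p each had a seed found on no other strand printed above. The seed of miR-214-3p differed from that of miR-199a-3p at 2 positions, U5C and U8G, counted from 1 at the 5′ end with the miR-199a-3p base first, although only 8 of 22 positions matched over the whole strand. The search covered 1679 mature names in the RefSeq table and left out those of 1 chromosome. Among them, 1 other had a seed of this group: miR-761 shares that of miR-214-3p, in the sequence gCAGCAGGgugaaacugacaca. Its probe stayed under the detection limit on every array, with spot medians of 73.2, 81.0, 84.6 and 85.9 units on the Wnt4, Wnt3a, Wnt5a and GFP arrays.

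The precursors show how the arms are linked, with the mature arms listed in RefSeq in capitals.
Mir199a-2: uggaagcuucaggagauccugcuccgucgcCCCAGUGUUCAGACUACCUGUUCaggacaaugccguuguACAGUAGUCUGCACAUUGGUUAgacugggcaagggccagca
Mir214: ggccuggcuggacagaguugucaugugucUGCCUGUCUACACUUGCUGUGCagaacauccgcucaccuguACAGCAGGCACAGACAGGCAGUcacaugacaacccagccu
Mir199b: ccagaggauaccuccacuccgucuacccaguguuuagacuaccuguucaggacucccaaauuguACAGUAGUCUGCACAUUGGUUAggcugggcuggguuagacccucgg

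Mir199a-2 lies at chr1:162217814-162217923 and Mir214 at chr1:162223368-162223477, both on the plus strand of GRCm38.p6, with 5444 bases between the hairpins. Both overlap Dnm3 and Dnm3os in the RefSeq gene table. Mir199b lies at chr2:32318460-32318569 on the plus strand and overlaps Dnm1, and its hairpin was identical to that of Mir199a-2 in 86 of 119 aligned columns. A further gene, Mir199a-1 at chr9:21496495-21496564 on the minus strand, overlaps Dnm2 and carries the same mature 5p and 3p strands as Mir199a-2. Among these genes the mature strand under the miR-199a-5p probe could thus come from 2, that under the miR-199a/b-3p probe from 3, and each miR-214 strand from 1. Which of these genes were transcribed in the cells was not measured.

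All 5 probes were detected on all 4 arrays. A miRNA counted as detected where its raw signal exceeded the blank spots' mean by over 2 SD. That limit was 86.9 units with Wnt4, 81.7 with Wnt3a, 111 with Wnt5a and 104 with GFP. The 5 probes were also detected with 3 other limits, set at 5 SD, from negative control probes and from spots without probe. In all, 547, 1063, 502 and 616 of 1898 miRNAs were detected on the Wnt4, Wnt3a, Wnt5a and GFP arrays. In bulk RNA, fewer cells that hold a miRNA and less of it per cell cannot be told apart. Osteoblast marker messages were not measured. Among 50 probes for miRNAs of epithelial, endothelial, blood, muscle, neural and liver cells, 7, 22, 6 and 9 were detected in the same order of arrays, and their summed signal above the blank mean was 184, 726, -80.5 and 403 units. Of the 10 neural probes, 4, 8, 3 and 3 were detected in that order, the brightest at 247, 331, 349 and 313 units. Some blood and muscle probes were also detected on every array. The 2 probes of the liver miRNA miR-122 were detected on no array. The part of all these miRNAs in the results was not tested.

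**Figure D1:**
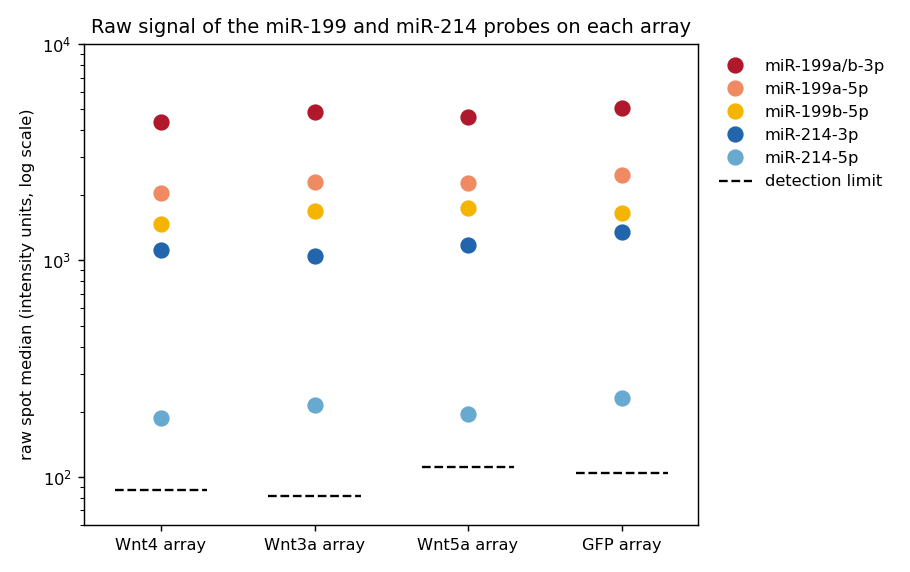
Raw spot median (intensity units, log scale) of the 5 probes on each array, 1 point per probe and array, with the detection limit of each array dashed. Every probe lies above the limit on every array, miR-214-5p closest to it, and no probe spans more than the 1.29-fold of miR-214-3p over the 4 arrays.

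The miR-199 5p strands were the flattest of the group after quantile normalization, but not under every scaling between arrays. miR-199a-5p, the CAV1 repressor, gave spot medians of 2053 units with Wnt4, 2313 with Wnt3a, 2274 with Wnt5a and 2476 with GFP. After background correction and quantile normalization its log2 levels were 11.18, 11.12, 11.10 and 11.15 in the same order. miR-199b-5p, known in mouse heart for repressing the kinase Dyrk1a, gave 1475, 1686, 1739 and 1650 units, and its log2 levels were 10.73, 10.66, 10.66 and 10.66. The root mean square distance between their centred log2 profiles over the 4 arrays was 0.02, the smallest of any pair of the 5 probes with quantile normalization. Under the other 5 of 6 scalings tried, the closest pair was miR-199a/b-3p with miR-199a-5p, at 0.03 without normalization between arrays. A single factor per array leaves such a distance unchanged. Scaling to the median, the upper quartile or the bright control probes therefore only repeated that value, and cyclic loess gave 0.04. The whole range over the arrays was 0.08 log2 for miR-199a-5p and 0.07 for miR-199b-5p, against a median range of 0.22 over 482 miRNAs detected on all arrays. Of those, 4.56% and 3.73% had a smaller range than miR-199a-5p and miR-199b-5p. In spot medians the flattest probe was miR-199a/b-3p, with a range of 1.16-fold, against 1.18-fold for miR-199b-5p and 1.21-fold for miR-199a-5p. Over the 6 scalings miR-199a/b-3p had the smallest range in 3, miR-199b-5p in 2 and miR-199a-5p in 1.

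miR-199a/b-3p, known in human liver cancer cells for repressing MET and MTOR, had the brightest probe, with 4369 units with Wnt4, 4825 with Wnt3a, 4604 with Wnt5a and 5060 with GFP. Its raw signal was highest with GFP. Comparing raw or unnormalized values between arrays assumes equal scanner settings, which are not given in the sources used here. Its normalized log2 levels were 12.17, 12.43, 12.09 and 12.09, which put Wnt3a highest. Quantile normalization assigns levels by rank, and the probe was the 15th brightest of 1898 with Wnt4, the 10th with Wnt3a and the 17th with both Wnt5a and GFP.

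The miR-214 strands both had their highest spot medians and normalized levels on the GFP array. miR-214-3p gave 1121 units with Wnt4, 1048 with Wnt3a, 1173 with Wnt5a and 1356 with GFP. Its normalized log2 levels were 10.32, 9.90, 10.14 and 10.37, lowest with Wnt3a. miR-214-5p, the other strand of the same hairpin, was dim, with 187, 214.02, 194 and 230 units, 2.16, 2.62, 1.75 and 2.21 times the detection limits. Its log2 levels were 7.67, 7.59, 7.39 and 7.68, lowest with Wnt5a. For this dim strand the array with the highest level turned with the processing: above the blank mean it had 141.2 units with Wnt3a and 139.4 with GFP, and scaled on the bright control probes Wnt3a over GFP was 0.04. Over the 4 arrays the range was 0.46 log2 for miR-214-3p and 0.28 for miR-214-5p, and 88.2% and 66.2% of the 482 miRNAs had a smaller range.

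None of the 5 probes was 1.5-fold higher or lower in any of the 6 comparisons between 2 arrays. The share of all miRNAs detected on both arrays that passed 1.5-fold either way was 0.774% for Wnt4 over GFP, 3.76% for Wnt3a over GFP and 0.203% for Wnt5a over GFP. It was 4.19% for Wnt3a over Wnt5a, 5.15% for Wnt3a over Wnt4 and 0.823% for Wnt5a over Wnt4. With backgrounds this low, a count of 0 among 5 is not a result about these miRNAs. A spot-noise standard error (SE) was taken from 5 bright control probes with 8 spots each. It was 0.10 log2 for Wnt4 over GFP, 0.13 for Wnt3a over GFP and 0.14 for Wnt5a over GFP. It covers variation between spots of an array, not between hybridisations or cultures, and the controls, at log2 levels of 10.06 to 15.20, do not reach down to miR-214-5p.

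With Wnt3a, the classical activator of beta-catenin signalling, miR-214-3p and miR-199a/b-3p stood apart from GFP in opposite directions. miR-214-3p was lower by 1.38-fold, or -0.46 on the log2 scale (SE 0.13). Of 611 miRNAs detected on both arrays, 26 were as low or lower, or 4.26%. miR-199a/b-3p was 1.26-fold higher, at 0.34 (SE 0.13), and 38 miRNAs were as high or higher. miR-199a-5p, miR-199b-5p and miR-214-5p were at -0.03, -0.01 and -0.09, each within 1 SE of 0. The median of the 5 probes was -0.03, beside 0.00 for all 611 miRNAs, whose SD was 0.30.

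The lower level of miR-214-3p with Wnt3a was kept under each scaling between arrays, and the higher level of miR-199a/b-3p was not. Over 6 scalings, from no normalization to scaling on the bright control probes, miR-214-3p ran from -0.46 to -0.29. miR-199a/b-3p ran from -0.13 to 0.34 over the same scalings and was at -0.07 without normalization between arrays. In the authors' deposited table miR-214-3p was at 906 units with Wnt3a and 512 with GFP, a log2 ratio of 0.82, beside a median of 1.47 over all miRNAs. The other 4 probes had log2 ratios of 1.11 to 1.25 in the authors' deposited table, so miR-214-3p was the lowest of the 5 there. Those values are the same spots minus a constant, times 1 factor per array, so this order is no separate check. miR-214-3p was at -0.57 once each array of the authors' deposited table was centred on the miRNAs listed on all 4.

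miR-214-3p was also set against the other 4 probes, because a scaling by 1 factor per array cancels in that comparison. With Wnt3a its difference minus their mean was -0.52 log2 (SE 0.14), and -0.32 without normalization between arrays. It was also taken over 12 settings, which are the processing used here and 11 alternatives to its background correction, normalization or source of values. The relative difference ran from -0.53 to -0.32, below 0 in all 12. Settings that differ only by 1 factor per array give the same value here, so the 12 are not separate checks. After subtraction of the scanner's background column, whose values track the spots themselves, the relative difference was 0.17. The same relative difference was -0.09 with Wnt4 (SE 0.12) and -0.14 with Wnt5a (SE 0.16). The 3 values share the GFP array. miR-214-3p was the lowest of the 5 with Wnt3a, so a value below the mean of the others followed from picking it. The SE leaves out that choice. The miR-199 probes also kept 1 sign with Wnt3a, above 0 in all 12 settings, miR-199a/b-3p from 0.03 to 0.50. miR-214-5p ran from -0.06 to 0.14.

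With Wnt3a the 2 strands of the Mir214 hairpin gave different values, on 1 array per group. The difference of miR-214-3p from GFP minus that of miR-214-5p was -0.38 log2 (SE 0.18), and over the 12 settings this gap ran from -0.39 to -0.24. The SE may not hold for this gap, because the bright controls behind it do not reach down to the dim miR-214-5p. With Wnt4 and Wnt5a the gap was -0.04 and 0.06, each within 1 SE of 0. Over the settings it ran from -0.05 to 0.03 with Wnt4 and from 0.04 to 0.28 with Wnt5a, whose upper end passes its SE of 0.20. With the background column the gap was -0.83 for Wnt4, -0.25 for Wnt3a and -1.10 for Wnt5a, so there it was smallest with Wnt3a. Between the strands of miR-199a the gap with Wnt3a was 0.37 (SE 0.18) for miR-199a/b-3p over miR-199a-5p. That gap ran from 0.03 to 0.37 over the settings, so its size came with the normalization.

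**Figure D2:**
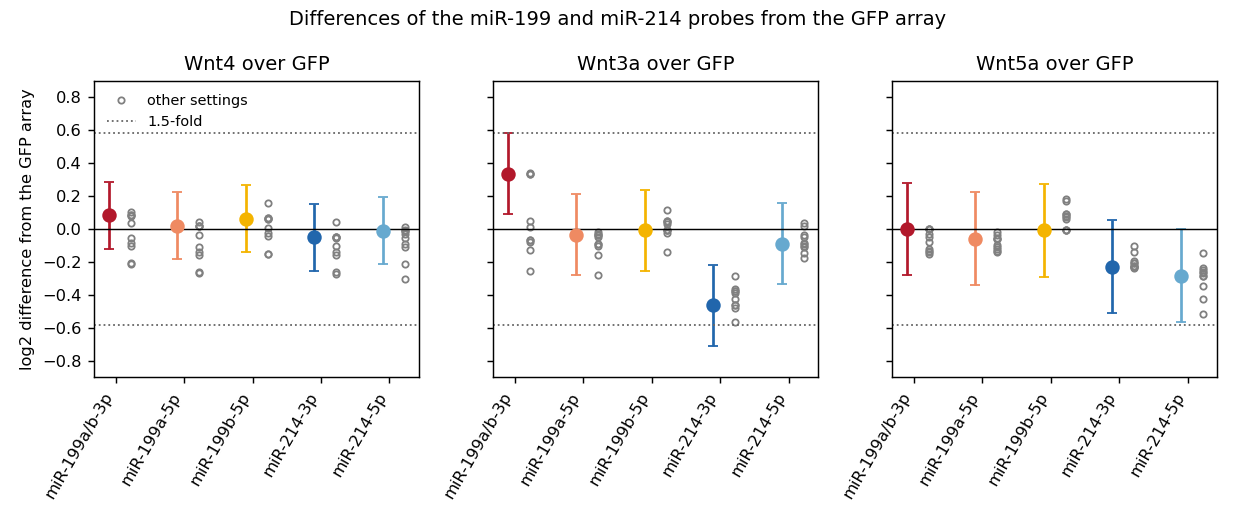
Log2 difference of each probe from the GFP array for Wnt4, Wnt3a and Wnt5a, with bars for the 95% interval of spot noise, and open grey points for 10 other settings. The deposited table without rescaling and the background column are left out. For miR-214-3p with Wnt3a all points lie below 0, while those of miR-199a/b-3p lie on both sides.

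With Wnt5a, best known for signalling without beta-catenin, both miR-214 strands were lower than with GFP and the miR-199 strands were near 0. miR-214-5p was at -0.28 (SE 0.14), a level 1.22-fold lower, and 5 of 493 miRNAs detected on both arrays were as low or lower. miR-214-3p was at -0.23 (SE 0.14), and 16 of 493 were as low or lower. miR-199a/b-3p, miR-199a-5p and miR-199b-5p were at 0.00, -0.06 and -0.01. The median of the 5 was -0.06, beside 0.00 for all miRNAs, whose SD was 0.13. Both strands stayed below 0 over the 12 settings, miR-214-5p from -1.02 to -0.15 and miR-214-3p from -0.74 to -0.10. This was not particular to miR-214, as miR-199a-5p was also below 0 in all 12, from -0.64 to -0.02. miR-199a/b-3p ran from -0.65 to 0.00 and miR-199b-5p from -0.43 to 0.18. The lowest of these values were from the authors' deposited table, in which all miRNAs had a median of -0.59. The dim signal of miR-214-5p, 194 units with Wnt5a against 230 with GFP, lay 97.4 and 139 units above the blank means of those arrays.

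With Wnt4, linked to both branches of Wnt signalling, the 5 probes lay between -0.05 and 0.08, all within 1 SE of 0. miR-199a/b-3p was at 0.08 (SE 0.10), miR-199b-5p at 0.06, miR-199a-5p at 0.02, miR-214-5p at -0.01 and miR-214-3p at -0.05. The median was 0.02, beside 0.01 for all 517 miRNAs detected on both arrays. Without normalization between arrays the 5 ran from -0.26 to -0.15, beside a median of -0.17 over all miRNAs and a mean of -0.16 over the bright control probes.

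**Figure D3:**
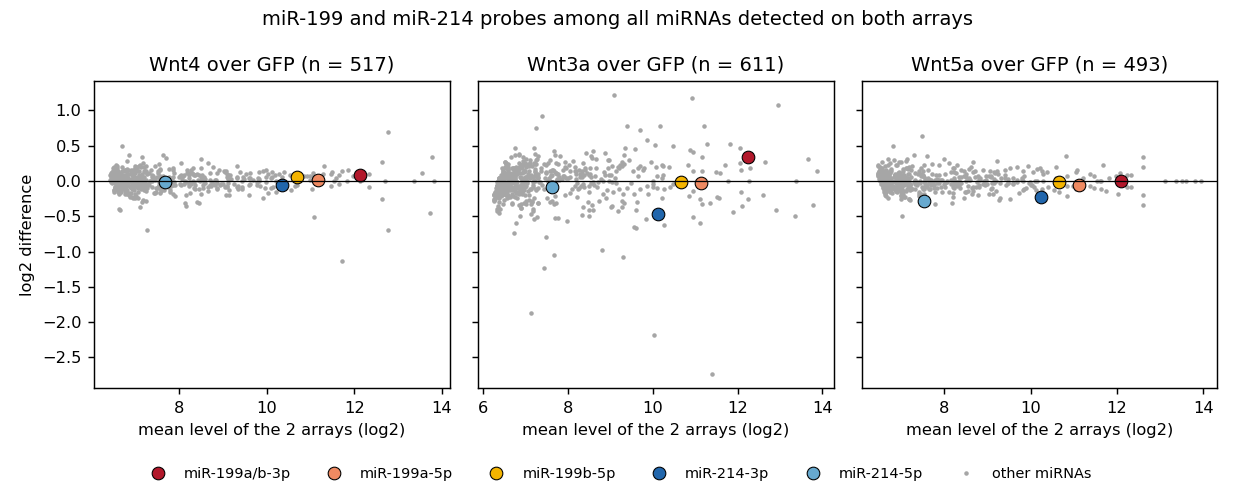
Log2 difference from GFP against the mean log2 level of both arrays for every miRNA detected on both, 1 panel per Wnt array, with the 5 probes coloured. The spread of all miRNAs is widest with Wnt3a (SD 0.30, against 0.14 with Wnt4 and 0.13 with Wnt5a), and miR-214-3p at -0.46 lies near its lower edge.

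Comparisons of 2 Wnt arrays leave out the GFP array. miR-214-3p was at -0.41 (SE 0.13) for Wnt3a over Wnt4 and at -0.24 (SE 0.17) for Wnt3a over Wnt5a, the lowest of the 5 in both. Over the 6 scalings these ran from -0.41 to -0.10 and from -0.24 to -0.15. miR-214-5p was at -0.08 for Wnt3a over Wnt4, 0.20 for Wnt3a over Wnt5a and -0.27 (SE 0.15) for Wnt5a over Wnt4. miR-199a-5p and miR-199b-5p lay between -0.08 and 0.02 in all 3 comparisons. miR-199a/b-3p was at 0.26 for Wnt3a over Wnt4 and 0.34 for Wnt3a over Wnt5a, and over the 6 scalings it ran from -0.04 to 0.26 and from 0.02 to 0.34. It was at -0.36 and -0.21 in the authors' deposited table after rescaling, so its direction turned with the processing.

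After quantile normalization the order of the arrays for miR-214-3p ran from Wnt3a through Wnt5a and Wnt4 to GFP, with steps of 0.24, 0.18 and 0.05 log2. The first and second steps exceeded 1 spot-noise SE and the last did not. Wnt3a was lowest and GFP highest under all 6 scalings, but Wnt4 and Wnt5a changed places: Wnt5a over Wnt4 ran from -0.18 to 0.05, and it was 0.05 without normalization between arrays and 0.04 under plain subtraction. The order of miR-214-5p after quantile normalization was Wnt5a, Wnt3a, Wnt4 and GFP, with steps of 0.20, 0.08 and 0.01, of which only the first exceeded 1 SE. Wnt5a was lowest under all 6 scalings and the other places were not fixed, and in spot medians Wnt4 was lowest. For miR-199a-5p and miR-199b-5p no 2 neighbouring arrays differed by more than 0.06 log2, under 1 SE.

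The miRNA with the profile most like that of miR-214-3p over the 4 arrays was let-7d-5p, at a root mean square distance of 0.02 log2, among 477 others detected on all arrays. It was at 0.00, -0.44 and -0.19 with Wnt4, Wnt3a and Wnt5a relative to GFP. Within a distance of 0.1 lay 40 of the 477, so the likeness is not close to unique. Nearest to miR-214-5p was miR-345-5p, at -0.06, -0.10 and -0.27, and nearest to miR-199a/b-3p was miR-7045-5p, at 0.05, 0.30 and -0.03. Nearest to miR-199a-5p and miR-199b-5p were miR-5119 and miR-206-3p, 2 flat profiles. To the mean profile of the 5 probes the nearest were miR-28c, miR-5119 and the probe shared by miR-466m-5p and miR-669m-5p at distances of 0.02 to 0.03. These distances rest on 4 arrays that all share 1 normalization.

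Other miRNAs of mesenchymal cells were read from lists for comparison. Of all miRNAs detected on both arrays, 0.774%, 3.76% and 0.203% passed 1.5-fold either way with Wnt4, Wnt3a and Wnt5a over GFP. Beside such shares a count of 0 in a short list is not a result about that list. In the cluster of miR-143 and miR-145, abundant in smooth muscle and fibroblasts, none of 4 detected probes passed 1.5-fold with Wnt3a over GFP, and the median was 0.17. miR-143-3p was at 0.49, miR-145a-5p at 0.20 and miR-145b at 0.15. On the bright control probes 1 of the 4 passed, miR-143-3p at 0.60. In the list of miR-23, miR-24 and miR-27, none of 7 passed, and the median was 0.11, with miR-23a-3p at 0.16, miR-23b-3p at 0.25 and miR-24-3p at 0.11. These directions turned with the scaling, as for miR-199a/b-3p: without normalization between arrays the 3 were at -0.23, -0.06 and 0.03, and the list's median was -0.04. Of 18 detected probes for other mesenchymal miRNAs, 2 were at least 1.5-fold higher with Wnt3a and 1 lower, with a median of -0.03. The higher ones were miR-21a-5p at 1.08 and miR-31-5p at 0.79, and the lower one was miR-100-5p at -0.59. They passed 1.5-fold under 6, 5 and 4 of the 6 scalings. miR-125b-5p, another bright miRNA of this list, was at -0.49 and miR-29a-3p, which targets collagen messages, at -0.31. Over the 6 scalings these 2 ran from -0.49 to -0.12 and from -0.38 to -0.24. With Wnt5a none of 3, 7 and 17 detected probes of the 3 lists passed 1.5-fold, with medians of 0.09, 0.07 and 0.00. On the bright control probes 1 of the 17 passed. With Wnt4, none of 4, none of 7 and 1 of 17 passed, with medians of 0.06, 0.06 and 0.05. The 1 was miR-21a-5p at 0.69, which passed only with quantile normalization among the 6 scalings: its spot medians were 6673 units with Wnt4 and 6669 with GFP. No test of a difference between lists could be made with 1 array per group.

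**Figure D4:**
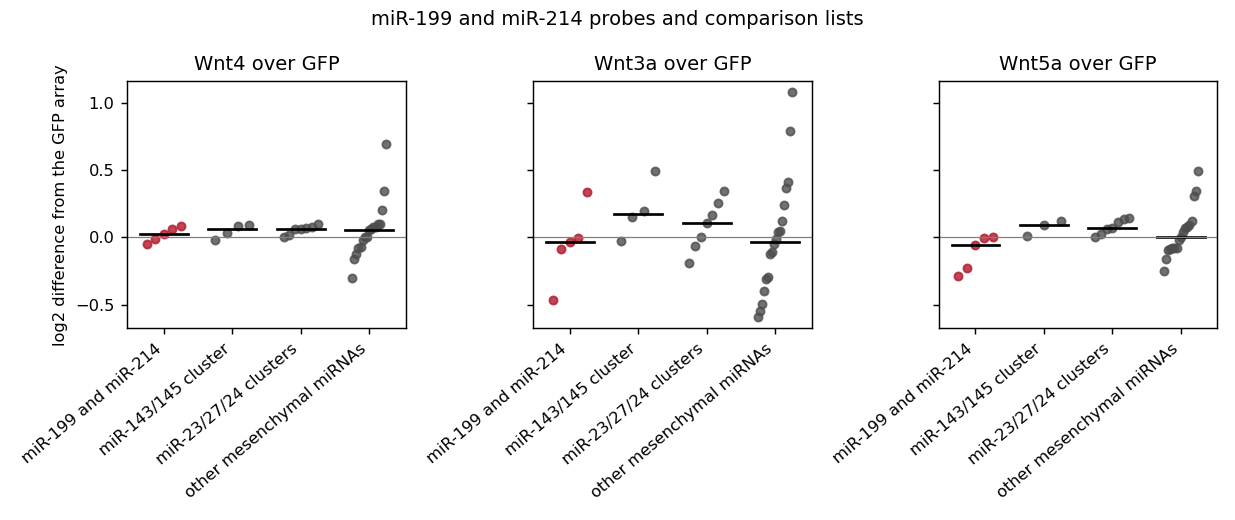
Log2 difference from GFP for the 5 probes (red) and for the detected probes of 3 comparison lists (grey), with the median of each as a bar, 1 panel per Wnt array. With Wnt3a the 5 probes run from -0.46 to 0.34 around a median of -0.03, inside the range of the list of other mesenchymal miRNAs, -0.59 to 1.08.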

How the data were processed

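The deposited scanner files hold, per the file headers, a raw median intensity and a background median for each spot, scanned at 635 nm and combined from 3 gains. Per the labels' protocols the RNA was labelled with Hy5 by a kit for LNA miRNA arrays. The line between the first and second gain sloped at 0.271 on Wnt4's array, 0.304 on Wnt3a's and 0.303 on those of Wnt5a and GFP. The authors' deposited table, also an intensity, equalled 1 factor per array times the spot median minus a constant, to within 0.0509 units, and the constants lay within 0.1012 units of the blank means. Its factors were 0.399, 0.929, 0.285 and 0.405 for Wnt4, Wnt3a, Wnt5a and GFP, and its median was about 25 on every array. Neither scanner nor genome build is stated in those sources.

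The spot medians were corrected over all spots by normexp (offset 50), and 1898 miRNA probes were quantile-normalized over the 4 arrays on the log2 scale (limma 3.58.1, R 4.3.3). The 2 probes marked as not good were left out. The background column was not used, since its log2 values correlated with the spot's own at Pearson's r of 0.945 to 0.985 across probes. Detection used the middle 95% of blank spots. Differences are log2 of the first named array over the second. The offset shrinks folds of dim probes such as miR-214-5p. The number of arrays limits the precision. With 1 array per group no test was made. The counting was tried on simulated data with changes larger than 1.5-fold, in probes brighter than miR-214-5p. The simulation did not cover changes as small as those of the 5 probes. Later steps used Python 3.11.15 with pandas 2.3.3, numpy 2.4.6 and matplotlib 3.10.9.

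The members and lists were chosen with earlier results of these data known. Named besides the 5 probes were the nearest profiles, probes that share a seed, the 3 brightest probes of each comparison list and, chosen after their values were seen, the other list members past 1.5-fold. Alternatives were other background corrections, normalizations, detection limits, a 2-fold threshold and the authors' table. Recomputing the order, range and likeness of the probes and the list values under each scaling was chosen after seeing the data.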

Additional observations from a re-analysis of the deposited data

How the results depend on the processing

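The count of 0 probes past 1.5-fold held in all 6 comparisons under other scalings between arrays, plain subtraction, no background correction and normexp with an offset of 16. Other detection limits and a 2-fold threshold could not change the count, since all 5 probes passed each limit and none passed 1.5-fold. They are therefore no check of it. In the authors' deposited table without rescaling the count was 5 for Wnt3a over GFP, Wnt5a and Wnt4, 4 for Wnt5a over GFP and 1 for Wnt5a over Wnt4. There the median ratio of all miRNAs was 2.77, 4.10, 3.35, 0.665 and 0.805 in that order, itself past 1.5-fold in all but the last. Rescaled, it was 1 for Wnt3a over Wnt4. With the background column, which follows the spot's own signal, it was 3, 1 and 4 for Wnt4, Wnt3a and Wnt5a over GFP, 4 for Wnt3a over Wnt5a, and 2 for both Wnt3a and Wnt5a over Wnt4. The share of all miRNAs past 1.5-fold is not given for the deposited table or the background column. Their counts are therefore not a result about the 5 probes.

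The median of the 5 probes moved by more than the spot-noise SE as follows, and most such shifts came with a shift of all miRNAs. In the deposited table it was -0.29, 1.13 and -0.65 for Wnt4, Wnt3a and Wnt5a over GFP, 1.75 for Wnt3a over Wnt5a, 1.40 for Wnt3a over Wnt4 and -0.42 for Wnt5a over Wnt4, with medians of all miRNAs of -0.28, 1.47, -0.59, 2.04, 1.74 and -0.31. Rescaled, it was -0.26, -0.24 and -0.33 for Wnt3a over GFP, Wnt5a and Wnt4, where all miRNAs were at 0.08, 0.05 and 0.02. For Wnt4 over GFP it was -0.21 without normalization, -0.27 under plain subtraction, -0.11 scaled to the median and -0.089 to the upper quartile. For Wnt3a over Wnt4 it was 0.17 without normalization, 0.18 under plain subtraction and 0.090 on the bright control probes, and for Wnt5a over Wnt4 it was 0.072 without normalization and 0.070 under plain subtraction. With the background column it was -0.95 for Wnt4 over GFP, -0.19 for Wnt3a over GFP, 0.25 for Wnt3a over Wnt4 and 0.10 for Wnt5a over Wnt4. The cause was not tested.

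Of 360 values of single probes under alternatives, 222 moved by less than the spot-noise SE and 138 by more. The 222 include all 30 values of each of 3 settings: no background correction, an offset of 16, and normalization over probes detected on all arrays. The last repeated the values used here, so it is no check of them. All 30 values of the deposited table and 26 of 30 with the background column moved by more. Leaving out a replicate does not apply with 1 array per group. No paired analysis was possible because each group has 1 array and the labels give no replicate numbers. Signal over background limits miR-214-5p most.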
